A study of Macaca mulatta with 35 samples.

Results

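The 4 most abundant transcripts over 35 RNA-seq libraries of the rhesus monkey antral follicle were examined. They were chosen by their summed share of the estimated counts over all 35 libraries, and they are 4 of the 49537 transcripts listed in each library. ENSMMUT00000088746.1, of 836 bases, held 18.8% of the counts as a mean over the 35 libraries and is called the first transcript below. ENSMMUT00000095955.1, of 1568 bases, held 9.19% (the second transcript). ENSMMUT00000094326.1, of 1146 bases, held 4.86% (the third transcript), and ENSMMUT00000097137.1, of 1149 bases, held 3.83% (the fourth transcript). The transcript ranked 5, ENSMMUT00000110398.1 of 1569 bases, lay just outside the choice at 2.14%, and the fourth transcript exceeded it by a factor of 1.79. These shares chose the transcripts and support nothing else. The 4 did not lead in every cell type. By counts in the 12 granulosa libraries, the second was among the first 4 in 9, the third in 3 and the fourth in 0. Counts are not corrected for transcript length. By TPM, a scale that is (described below), the second was among the first 4 in 3 of these libraries, the third in 2 and the fourth in 0. In cumulus cells the fourth was among the first 4 in 10 of 11 libraries by counts and in 8 by TPM. The transcripts ranked 5 and 6 held 3.52% and 3.50% of granulosa counts, above the third (1.82%) and the fourth (1.88%). The deposited tables hold Ensembl transcript IDs without gene names, and no name or function is given here for any of the 4.

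The libraries came from 3 cell types of adult female rhesus monkeys (Macaca mulatta), each from small, medium and large antral follicles, with no treatment, allele or strain named in the labels. Ovaries were recovered at necropsies done for reasons unrelated to reproduction, and cells were taken from individual follicles, per the labels' protocols. Small-follicle cumulus cells had 3 libraries and each of the other 8 groups had 4, so that 11 libraries were of cumulus cells, 12 of granulosa cells and 12 of oocytes. A library is written as its cell type, its follicle size and its title number, as in granulosa medium 2. The labels do not say how many animals or follicles stand behind a library or what a shared number means, so p-values measure only the spread between these libraries. The labelled cell types could not be checked against marker genes, because no gene names go with the IDs.

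As background, granulosa cells line the wall of the antral follicle and make estrogen, cumulus cells surround the oocyte and are coupled to it through gap junctions, and the growing oocyte stores RNA and protein for the early embryo. A share of counts is relative. In bulk RNA a higher share of 1 transcript and less of all the other RNA cannot be told apart, and neither can fewer cells and less RNA per cell. TPM, a level corrected for transcript length and scaled to the same sum in every library, is the scale on which different transcripts are compared here.

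The first transcript was the leading RNA of the somatic cells. Its share of counts was 31.0% ± 6.61 in granulosa cells (SD, n = 12), 16.9% ± 2.78 in cumulus cells (SD, n = 11) and 8.23% ± 1.504 in oocytes (SD, n = 12). By TPM it ranked first in all 11 cumulus and all 12 granulosa libraries and in 9 of 12 oocyte libraries. The order granulosa, cumulus, oocyte held on the TPM scale as well, at 413117 ± 67804, 265161 ± 42292 and 167631 ± 25179.

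In cumulus cells the share of the first transcript was 19.4%, 20.3% and 16.3% in small-follicle libraries 1, 2 and 3. In libraries 1 to 4 it was 20.2%, 14.9%, 17.2% and 18.6% in medium follicles and 14.0%, 13.4%, 18.9% and 12.9% in large follicles. The 3 lowest cumulus values were all from large follicles, but cumulus large 3 lay among the higher ones. In granulosa cells the shares in libraries 1 to 4 were 26.3%, 33.6%, 43.2% and 29.0% in small follicles, 21.8%, 33.7%, 37.4% and 27.3% in medium follicles, and 19.8%, 32.6%, 35.9% and 31.8% in large follicles. Library 3 was highest and library 1 lowest at each of the 3 sizes. In oocytes they were 9.59%, 10.2%, 8.01% and 6.92% in small follicles, 10.04%, 10.03%, 6.08% and 7.58% in medium follicles, and 8.52%, 6.46%, 6.71% and 8.60% in large follicles. Every oocyte share lay below every cumulus and every granulosa share. Such a gap was met by 12.7% of the 36437 transcripts tested against cumulus cells and by 4.86% of the 34410 tested against granulosa cells. Cumulus and granulosa shares overlapped: granulosa large 1 (19.8%) lay below cumulus small 2 (20.3%) and cumulus medium 1 (20.2%), and the other 9 cumulus libraries lay below every granulosa library.

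**Figure D1:**
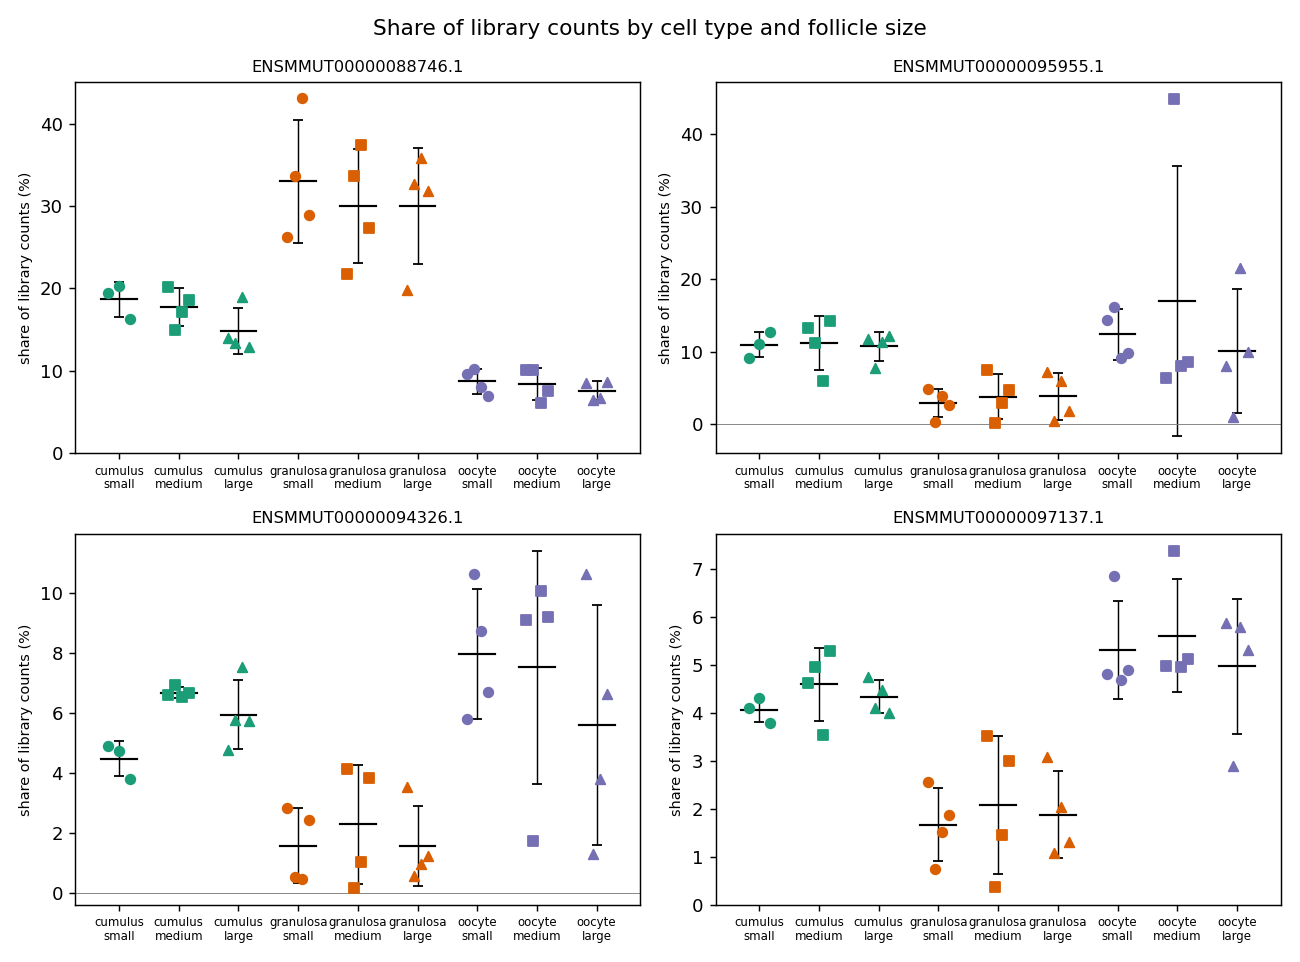
Share of a library's estimated counts (%) held by each of the 4 transcripts, 1 panel per transcript, with 1 point per library by cell type and follicle size. The first transcript is highest in granulosa cells, where the others are lowest, and the second transcript reaches 44.8% in 1 oocyte library of medium follicles.

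The second transcript had the widest range of the 4. Its share was 10.98% ± 2.44 in cumulus cells (SD, n = 11), 3.55% ± 2.59 in granulosa cells (SD, n = 12) and 13.2% ± 11.2 in oocytes (SD, n = 12), with medians of 11.4%, 3.42% and 9.46%. Without oocyte medium 2 the oocyte mean was 10.3% ± 5.43 (SD, n = 11), below that of cumulus cells. On the TPM scale the means were 79940 ± 16813, 22787 ± 17462 and 122529 ± 96624. From its lowest to its highest library its share differed by 2.36-fold in cumulus cells, 61.4-fold in granulosa cells and 45.2-fold in oocytes.

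In cumulus cells the second transcript stood at 9.19%, 11.1% and 12.7% in small-follicle libraries 1 to 3, at 13.3%, 11.2%, 6.04% and 14.3% in medium-follicle libraries 1 to 4, and at 11.7%, 7.76%, 11.4% and 12.2% in large-follicle libraries 1 to 4. Cumulus medium 3 was the lowest. In granulosa cells the values of libraries 1 to 4 were 4.86%, 0.325%, 3.94% and 2.68% in small follicles, 7.47%, 0.122%, 2.91% and 4.74% in medium follicles, and 7.22%, 0.461%, 5.99% and 1.87% in large follicles. The 3 granulosa libraries numbered 2 were the 3 lowest of the series. In oocytes the values were 14.4%, 16.2%, 9.10% and 9.81% in small follicles, 6.45%, 44.8%, 8.02% and 8.61% in medium follicles, and 8.07%, 0.992%, 21.6% and 10.02% in large follicles. Oocyte medium 2 and oocyte large 2 were the highest and the lowest oocyte libraries. Of the 12 oocyte libraries 10 lay above every granulosa library, and so did 10 of the 11 cumulus libraries. Oocyte and cumulus values overlapped, with 4 oocyte libraries above and 1 below all cumulus libraries.

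For the third transcript the mean shares were 5.81% ± 1.14 in cumulus cells (SD, n = 11), 1.82% ± 1.45 in granulosa cells (SD, n = 12) and 7.02% ± 3.30 in oocytes (SD, n = 12). Its TPM means were 61472 ± 12880, 17169 ± 14378 and 97004 ± 45170. In cumulus cells its shares were 4.89%, 4.75% and 3.81% in small-follicle libraries 1 to 3, 6.60%, 6.93%, 6.52% and 6.65% in medium-follicle libraries 1 to 4, and 4.76%, 5.76%, 7.51% and 5.74% in large-follicle libraries 1 to 4. All 4 medium-follicle cumulus libraries lay above all 3 small-follicle ones. In granulosa cells the third transcript was at 2.86%, 0.560%, 0.481% and 2.45% in libraries 1 to 4 of small follicles, at 4.14%, 0.186%, 1.03% and 3.82% of medium follicles, and at 3.55%, 0.592%, 0.980% and 1.25% of large follicles. Libraries 2 and 3 were below libraries 1 and 4 at every size. In oocytes it stood at 5.80%, 10.6%, 8.74% and 6.71% in small follicles, 9.08%, 1.75%, 10.04% and 9.19% in medium follicles, and 10.6%, 1.31%, 3.8% and 6.63% in large follicles. Oocyte medium 2, the highest library of the second transcript, was the next to lowest oocyte library of the third transcript. Of the oocyte libraries 9 of 12, and of the cumulus libraries 10 of 11, lay above every granulosa library.

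The fourth transcript had the narrowest range of the 4 in cumulus cells. Its share averaged 4.36% ± 0.522 there (SD, n = 11), 1.88% ± 0.991 in granulosa cells (SD, n = 12) and 5.31% ± 1.13 in oocytes (SD, n = 12). Its TPM means were 45928 ± 5922, 17354 ± 10028 and 72407 ± 12915. In cumulus cells its shares were 4.11%, 4.31% and 3.8% in small-follicle libraries 1 to 3, 4.62%, 4.96%, 3.54% and 5.30% in medium-follicle libraries 1 to 4, and 4.75%, 4.11%, 4.49% and 4.01% in large-follicle libraries 1 to 4. From lowest to highest they differed by 1.499-fold. In granulosa cells the values were 2.55%, 0.742%, 1.51% and 1.88% in small follicles, 3.52%, 0.358%, 1.45% and 3.0% in medium follicles, and 3.09%, 1.08%, 2.04% and 1.31% in large follicles. As with the second transcript, library 2 was lowest at each size. In oocytes they were 4.82%, 6.86%, 4.70% and 4.90% in small follicles, 4.99%, 7.39%, 4.97% and 5.13% in medium follicles, and 5.87%, 2.90%, 5.80% and 5.33% in large follicles. Every cumulus share lay above every granulosa share, which held for 0.466% of the 34521 transcripts tested between these cell types. Of the 12 oocyte libraries 11 lay above every granulosa library, and oocyte large 2 did not.

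Differences between cell types were tested with edgeR's quasi-likelihood test on every transcript that passed a filter on low counts, with Benjamini-Hochberg adjustment over all of them and a threshold of 0.05. All 4 transcripts passed that filter in each fit. The log2 differences given with these tests are of TMM-scaled counts, not of TPM. Against granulosa cells, oocytes had less of the first transcript and more of the other 3, so that 4 of 4 passed the test, 3 higher and 1 lower. Of all transcripts 65.2% passed, 30.6% higher and 34.6% lower. The first transcript was lower by a log2 difference of -2.45 (SE 0.26, adjusted p = 7.72e-08, edgeR). The second was higher by 1.64 (SE 0.62, adjusted p = 0.0242, edgeR), the third by 1.57 (SE 0.41, adjusted p = 0.00226, edgeR) and the fourth by 1.15 (SE 0.28, adjusted p = 0.00137, edgeR). The call of the second transcript was lost without oocyte medium 2 (1.02, adjusted p = 0.107, edgeR) and without oocyte large 3 (1.38, adjusted p = 0.0553, edgeR). It was also lost in the replicate block with size, a block on library number and size (1.29, adjusted p = 0.116, edgeR). The median log2 difference of the 4 was 1.36, against -0.23 over all transcripts tested. The first transcript lay in the other direction, so this median shows no common shift of the 4.

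Cumulus cells differed from granulosa cells in the same directions. Here 3 of 4 transcripts passed the test, 2 higher and 1 lower, where 19.1% of all transcripts did, 9.45% higher and 9.63% lower. The number called over all transcripts was 6584, or 4259 without cumulus small 2. It was 6633 with a block on library number and 1064 with the replicate block with size. These blocks pair libraries by number. In only 3 of 11 pairs did the cumulus library correlate best with its own number among the granulosa libraries of that size. The first transcript was lower in cumulus cells by a log2 difference of -1.43 (SE 0.25, adjusted p = 0.00355, edgeR), the third was higher by 1.33 (SE 0.36, adjusted p = 0.0162, edgeR) and the fourth was higher by 0.81 (SE 0.25, adjusted p = 0.0310, edgeR). The second, at 1.22 (SE 0.48), did not pass (adjusted p = 0.0805, edgeR). It did pass with the library number as a block (1.73, adjusted p = 0.0180, edgeR), with total-count scaling (1.64, adjusted p = 0.0251, edgeR), in DESeq2 (1.15, adjusted p = 0.0389) and without granulosa large 3 (1.40, adjusted p = 0.0499, edgeR). The call of the fourth transcript was lost without any 1 of 6 libraries: cumulus small 1, cumulus small 2, granulosa small 2, granulosa medium 3, granulosa large 2 and granulosa large 4. Over all libraries left out in turn its adjusted p ran from 0.0143 to 0.0621 (edgeR), and with the replicate block with size it was 0.0679 (log2 difference 0.94, edgeR). The median log2 difference of the 4 was 1.01, against 0.04 over all transcripts, again with the first transcript in the other direction.

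Against cumulus cells, oocytes had less of the first transcript by a log2 difference of -0.85 (SE 0.21, adjusted p = 0.00131, edgeR). The fourth was higher by 0.51 (SE 0.21, adjusted p = 0.0401, edgeR), so that 2 of 4 passed, 1 in each direction. Of all transcripts 68.0% passed, 33.6% higher and 34.4% lower. The second (0.58, SE 0.46, adjusted p = 0.266, edgeR) and the third (0.40, SE 0.28, adjusted p = 0.202, edgeR) did not pass. Without oocyte medium 2 the difference of the second was -0.06, with an adjusted p of 0.90 (edgeR). The call of the fourth transcript was lost in 11 of 23 fits with a library removed, with adjusted p from 0.0198 to 0.119 (edgeR). The libraries were cumulus small 2 and 3, medium 1 and 3, large 1, 2 and 4, and oocyte small 2, medium 2, large 1 and large 3, and the smallest log2 difference, 0.30, was without oocyte medium 2. It was also lost with total-count scaling (0.29, adjusted p = 0.0678, edgeR). The median log2 difference of the 4 was 0.46, against -0.08 over all transcripts, again with the first transcript in the other direction.

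**Figure D2:**
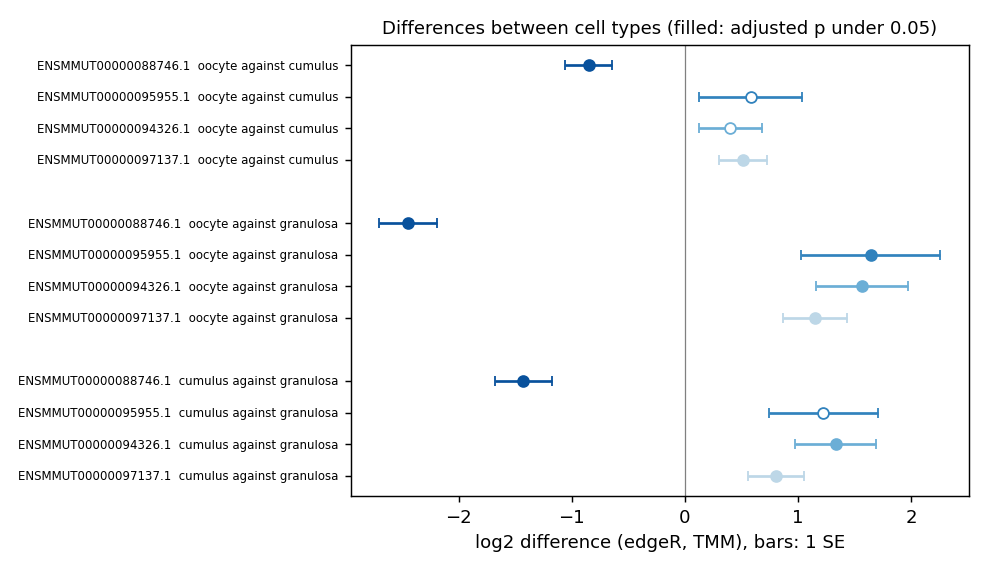
Log2 difference between cell types of each of the 4 transcripts (edgeR), with bars of 1 SE. The first transcript is negative in all 3 comparisons and the other 3 are positive, from 0.40 to 1.64, of which 3 did not pass the test (the second and the third in oocytes against cumulus cells, and the second in cumulus against granulosa cells).

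The scaling of the libraries changed the balance of all transcripts but not the direction of any of the 4. Cumulus against granulosa cells, 3261 transcripts were higher and 3323 lower with TMM factors, 6805 and 902 with total-count scaling, and 7089 and 1007 with totals that leave out the 4 transcripts. The median log2 difference over all transcripts was 0.04, 0.51 and 0.51 in that order. Oocytes against granulosa cells, the calls were 10515 higher and 11916 lower with TMM factors and 12446 and 9121 with total-count scaling, with medians of -0.23 and 0.26.

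No difference between follicle sizes passed the test for any of the 4 transcripts. Over the 3 cell types, 3 pairs of sizes and 4 transcripts, 0 of 36 results were called by edgeR, 0 had an unadjusted p under 0.05, and the lowest unadjusted p was 0.0783. DESeq2 also called 0 of 36, with 1 at an unadjusted p under 0.05. Among all transcripts the share called was 0% in 7 of the 9 size comparisons and 0.00348% (1 of 28721) in granulosa cells medium against small and large against small.

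That lowest p belonged to the third transcript in cumulus cells, medium against small follicles. Its shares were 6.68% ± 0.176 (SD, n = 4) and 4.48% ± 0.584 (SD, n = 3) and did not overlap, which held in either direction for 4.81% of the 31869 transcripts tested. The log2 difference was 0.66 (SE 0.34, adjusted p = 1, edgeR). Large follicles stood between, at 5.94% ± 1.15 (SD, n = 4), overlapping both. The first transcript in cumulus cells was 18.7% ± 2.14 (SD, n = 3), 17.7% ± 2.25 (SD, n = 4) and 14.8% ± 2.78 (SD, n = 4) in small, medium and large follicles. Its log2 difference of large against small was -0.28 with an SE of 0.36, within the spread between libraries.

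In granulosa cells the size groups overlapped when library number was left aside. The first transcript was 33.0% ± 7.44, 30.0% ± 6.92 and 30.0% ± 7.02 in small, medium and large follicles (SD, n = 4 each). Within numbers, it was lower in large than in small follicles in number 1 (19.8% and 26.3%), number 2 (32.6% and 33.6%) and number 3 (35.9% and 43.2%). In number 4 it was higher (31.8% and 29.0%). A block on library number changed no size call of the 4 transcripts. The second was 2.95% ± 1.97, 3.81% ± 3.09 and 3.88% ± 3.23 (SD, n = 4 each). The SE of the log2 differences between sizes was 0.51 to 1.03 for the 4 transcripts in the main fit, which has no block on library number. Only large changes could have been detected in that fit. In oocytes the second transcript was 12.4% ± 3.47, 17.0% ± 18.6 and 10.2% ± 8.54 (SD, n = 4 each), and its log2 difference of large against medium, -1.42 with an SE of 0.98, turned to 0.48 without oocyte medium 2. The fourth in oocytes was 5.32% ± 1.03, 5.62% ± 1.18 and 4.98% ± 1.41 (SD, n = 4 each).

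Within granulosa cells the second, the third and the fourth transcripts varied together. Relations between shares were taken within each cell type, 6 pairs in each and 18 in all, with two-sided permutation tests of 100000 resamples adjusted over the 18, and 6 of the 18 passed. In granulosa cells (n = 12) the second and the fourth transcripts had a Pearson r of 0.92 (permutation p = 2e-05, adjusted p = 0.0002) and a Spearman rho of 0.95 (permutation p = 1e-05, adjusted p = 0.0002). The third and the fourth had r of 0.94 (permutation p = 1e-05, the smallest these permutations can give, adjusted p = 0.0002) and rho of 0.86 (adjusted p = 0.0063). The second and the third had r of 0.75 (permutation p = 0.0069, adjusted p = 0.0248) and rho of 0.72 (adjusted p = 0.0478). Without the 2 libraries farthest from the median of the transcript named first in each pair, these 3 values of r were 0.85, 0.89 and 0.55. All 3 were highest in granulosa medium 1 and lowest in granulosa medium 2. Granulosa small 3 and granulosa large 3 departed from the common order, with 3.94% and 5.99% of the second transcript but 0.481% and 0.980% of the third.

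The first transcript went the other way in granulosa cells. Its r with the third was -0.85 (permutation p = 0.0002, adjusted p = 0.0011), with rho of -0.83 (adjusted p = 0.0080), and with the fourth -0.71 (permutation p = 0.0094, adjusted p = 0.0283), with rho of -0.65 (adjusted p = 0.0904). Without the 2 farthest libraries the values of r were -0.88 and -0.77. With the second transcript r was -0.52 and did not pass (permutation test, adjusted p = 0.169). Shares add up to a whole, so a transcript that takes up much of a library lowers the shares of the rest by arithmetic. On the log2 ratio of each transcript to the counts of all transcripts other than the 4, r of the first with the third was -0.60 (permutation test, adjusted p = 0.0859), whereas rho was -0.76 and passed (permutation test, adjusted p = 0.0251). With the fourth, r was -0.32 and did not pass (permutation test, adjusted p = 0.386).

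**Figure D3:**
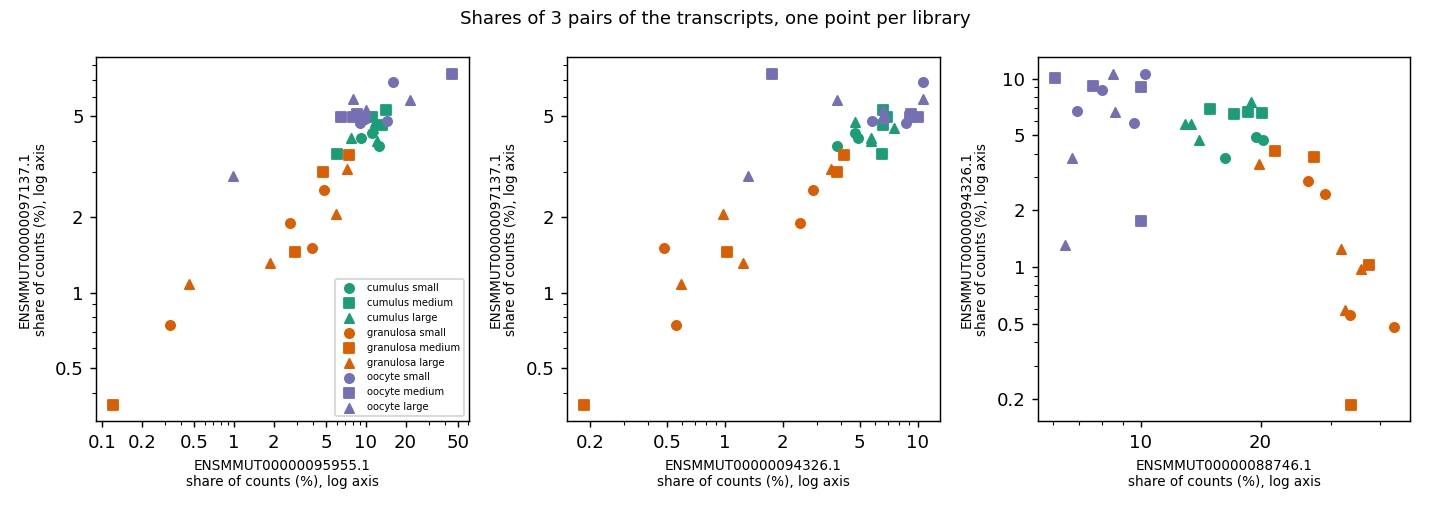
Shares of counts (%, log axes) of 3 pairs of the transcripts, 1 point per library, coloured by cell type and shaped by follicle size. Granulosa libraries run along a line for the second with the fourth (r = 0.92) and the third with the fourth (r = 0.94), and downward for the first with the third (r = -0.85), while oocyte medium 2 stands apart from the other oocytes with 44.8% of the second and 1.75% of the third.

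Library number moved with these shares in granulosa cells. The second, the third and the fourth transcripts together held 10.3% to 15.1% in the 3 granulosa libraries numbered 1, 0.666% to 2.13% in those numbered 2, 5.39% to 9.01% in those numbered 3 and 4.43% to 11.6% in those numbered 4. The values of numbers 1 and 2 did not overlap with each other or with those of 3, across 3 follicle sizes. The permutation tests treat the libraries as independent. After the mean of each number was taken off, a calculation chosen after seeing the data, the second and the fourth transcripts still passed (r = 0.87, exact permutation test within numbers, adjusted p = 0.0139). The others kept their sign and did not pass (exact permutation tests): 0.73 for the second and the third (adjusted p = 0.156), 0.93 for the third and the fourth (adjusted p = 0.0764), -0.67 for the first and the third (adjusted p = 0.130) and -0.64 for the first and the fourth (adjusted p = 0.156). What the number stands for, and its part in the relations, was not tested.

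**Figure D4:**
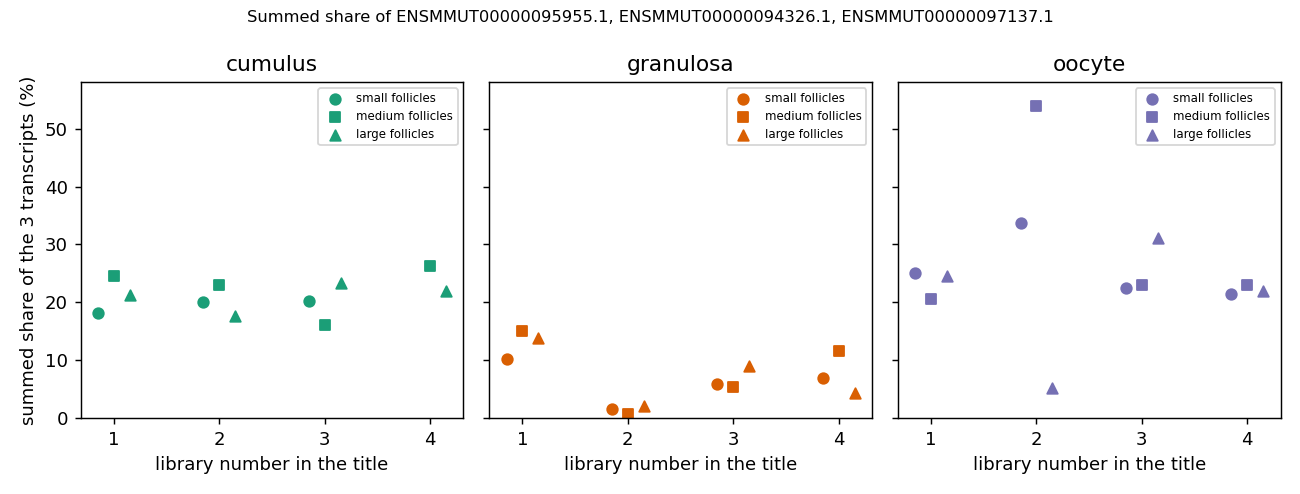
Summed share (%) of the second, the third and the fourth transcripts in each library, by the library number in the title, 1 panel per cell type. In granulosa cells number 2 lies at 0.666% to 2.13% and number 1 at 10.3% to 15.1%, whereas in oocytes number 2 holds both the lowest (5.20%) and the highest (54.0%) library.

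In oocytes 1 of 6 relations passed. The second and the fourth transcripts had r of 0.78 (n = 12, permutation p = 0.0037, adjusted p = 0.0167) and r of 0.77 without the 2 farthest libraries, with rho of 0.56 (adjusted p = 0.186). With number means taken off, r was 0.78 and did not pass (exact permutation test, adjusted p = 0.500). The second and the third had r of -0.44, which became 0.47 without oocyte medium 2 and oocyte large 3. In cumulus cells (n = 11) 0 of 6 relations passed the permutation test, and 1 had an unadjusted p under 0.05. It was the second with the fourth, with r of 0.64 (permutation p = 0.0346, adjusted p = 0.0890) and 0.40 without the 2 farthest libraries.

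Ratios of TPM between the 4 transcripts showed which libraries broke the common pattern. The second over the first ran from 0.00168 in granulosa medium 2 to 2.08 in oocyte medium 2. The second over the third was 17.7 in oocyte medium 2, 5.66 in granulosa small 3 and at most 2.30 in cumulus cells. In granulosa small 2, the lowest library, it was 0.402. The third over the fourth ran from 0.238 in oocyte medium 2 to 2.03 in oocyte medium 3.

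The summed share of the 4 transcripts was not tested between cell types. It was 38.1% ± 4.57 in cumulus cells (SD, n = 11), 38.3% ± 4.81 in granulosa cells (SD, n = 12) and 33.7% ± 12.1 in oocytes (SD, n = 12). Oocytes ran from 11.7% to 64.0% with a median of 30.6%, and their mean without oocyte medium 2 was 31.0% ± 7.86 (SD, n = 11), a calculation chosen after seeing the data. By TPM the sums were 45.3%, 47.0% and 46.0%. The second, the third and the fourth alone held 21.2% ± 3.08 of cumulus counts, 7.25% ± 4.78 of granulosa counts and 25.5% ± 11.3 of oocyte counts (SD, n = 11, 12 and 12).

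The 4 transcripts held the counts that made the deepest library the deepest. The lowest total of estimated counts was 20780476 (oocyte large 4), the median 28839787 and the highest 52350387 (oocyte medium 2). Oocyte medium 2 held 33506881 counts of the 4 transcripts, 64.0% of its total. Without them it held 18843506, which ranked 13 of 35. The range over all libraries then shrank from 2.52-fold to 1.81-fold, from 14006713 in granulosa small 1 to 25355454 in oocyte small 4. Among the 12 oocyte libraries the SD of the total fell from 8705145 to 2852956. Cumulus totals lay between 25942222 and 31971358 and granulosa totals between 22067194 and 33772697.

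Oocyte large 2 was the opposite case. Its summed share was 11.7%, the lowest of the 35, and its total of 21467634 ranked 34, but its 18964008 counts outside the 4 transcripts ranked 11. In estimated counts, the shortfall of its total lay in the 4 transcripts. This library also stood apart outside the 4. It had the fewest transcripts at 10 counts or more of the oocytes (22229). Among oocytes it had the highest share of the transcript ranked 6 (2.46%) and the lowest of that ranked 7 (0.511%). The low total of oocyte large 4 did not lie in the 4 transcripts alone: its 14426916 counts outside the 4 ranked 34. The highest summed share among granulosa libraries was 49.1% in granulosa small 3, of which the first transcript made up 43.2 percentage points.

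**Figure D5:**
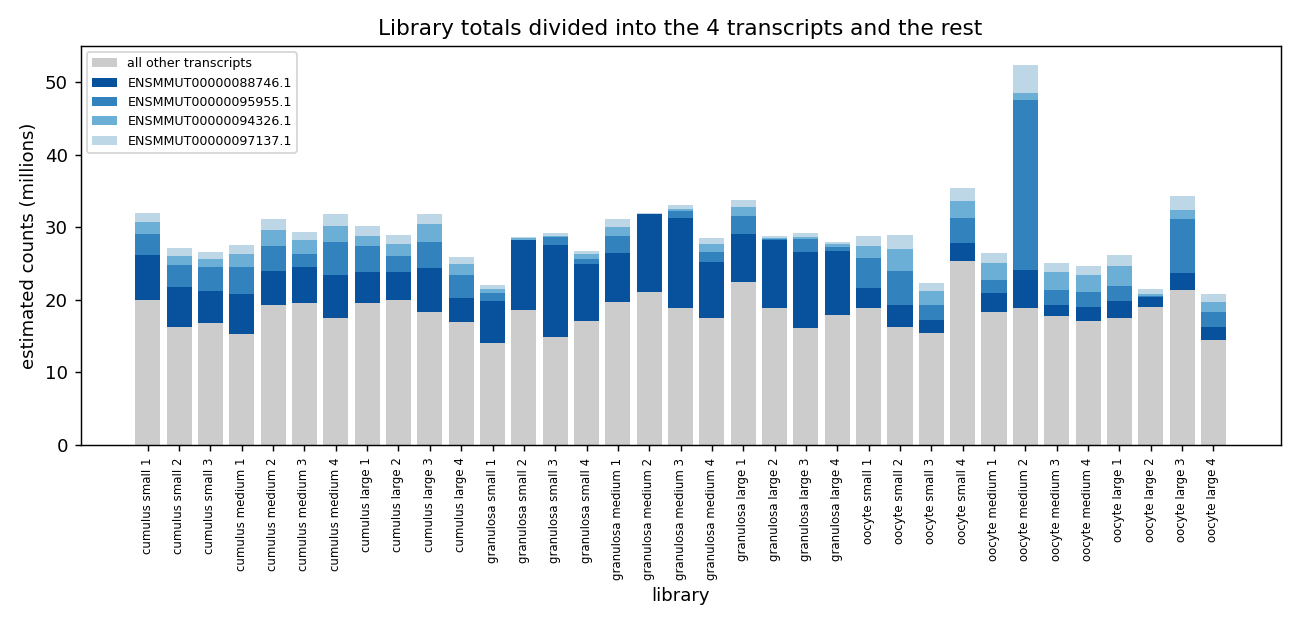
Estimated counts per library, split into the 4 transcripts and all other transcripts. Oocyte medium 2 has the largest total (52350387), but its counts of other transcripts (18843506) lie within the range of the remaining libraries.

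The scaling factor of oocyte medium 2 also changed when the 4 transcripts were left out. Its TMM factor was 0.557 with all transcripts and 1.06 when the 4 were left out before scaling. The library total fell at the same time, and counts are scaled by the product of total and factor. The relative change of that product was 0.9160 in oocyte medium 2. In the other oocyte libraries it ran from 0.9156 (oocyte large 3) to 0.9456 (oocyte large 4), so its scaling against them hardly changed. All oocyte values lay below those of cumulus cells (0.9966 to 1.093) and granulosa cells (1.014 to 1.079). The scaling of oocytes against these cells therefore did shift when the 4 were left out. The factor of granulosa medium 2, at 0.571, was 0.525 without them, so that its low factor did not rest on the 4. The number of transcripts at 1 CPM (counts scaled to a library's total) or more in oocyte medium 2 was 18540, the lowest of the oocytes, when CPM was taken of the total, and 24077 when taken of the counts outside the 4. Granulosa medium 2 had the lowest number of the 35 libraries either way, 16599 and 18726.

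By a rule of likeness, Pearson r of log2 CPM over the 35 libraries among 8664 transcripts with a mean of at least 10 CPM, the nearest transcripts to each of the 4 were named. These r values are descriptions across libraries of 3 cell types, which share depth and scaling. The nearest to the first transcript were ENSMMUT00000110416.1 (r = 0.94) and ENSMMUT00000110393.1 (r = 0.91). With the mean of each cell type taken off, they were ENSMMUT00000110416.1 (r = 0.77) and ENSMMUT00000100329.1 (r = 0.68). The second and the fourth transcripts were each other's nearest over 35 libraries (r = 0.92). The next were ENSMMUT00000066745.2 for the second (r = 0.84) and ENSMMUT00000102055.1 for the fourth (r = 0.85). With cell type means taken off the second and the fourth kept r of 0.93 with each other, and both ran with ENSMMUT00000089466.1, the transcript ranked 7 by share, at r of 0.91 for the second and 0.93 for the fourth.

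The third transcript had no such near partner. Its highest r over 35 libraries was 0.83 with ENSMMUT00000060078.2 and 0.82 with ENSMMUT00000076801.2. With cell type means taken off the highest were 0.77 with ENSMMUT00000084280.1 and 0.76 with ENSMMUT00000076801.2. Of the 8664 transcripts compared, 0 exceeded r of 0.9 with the third transcript on either measure. With cell type means taken off, 0 exceeded it with the first transcript either.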

How the data were processed

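Per the labels' protocols, total RNA was isolated with a PicoPure kit and the library amplification used Ovation RNA-Seq System v2. The submitters' processing notes name bcl2fastq 2.19.1 for read conversion and kallisto 0.44.0 for quantification, and for the index the build and annotation were not given in the sources used here. The deposited estimated counts divide reads that fit several transcripts among them, so that near-identical transcripts can share reads. The authors' TPM values are these counts divided by effective length and scaled to the same sum in every library. Of the 49537 IDs, 0 matched either table of gene names.

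Shares are estimated counts over the library total. Estimated counts were rounded and tested per transcript with edgeR 4.0.16 in R 4.3.3 (TMM, filterByExpr with a minimum count of 10, robust quasi-likelihood fit). Cell types were compared on the libraries of the 2 cell types, averaged over sizes, and sizes within each cell type. 36437, 34410 and 34521 transcripts were tested between cell types, and 31869, 28721 and 28769 between sizes in cumulus cells, granulosa cells and oocytes. Alternatives were other scalings (RLE factors, totals, totals without the 4 transcripts), no filter, DESeq2 1.42.0 and each library left out in turn. Further alternatives were a block on library number (the replicate block) and a block on library number and size (the replicate block with size). Correlations and figures used scipy 1.17.1 and matplotlib 3.10.9. The fits were also run on simulated counts, drawn independently for each library from 1 pooled proportion per transcript. That run holds no library-number structure and no outlying library, so it cannot show how the fits behave on these libraries. The transcripts, lists and tests were chosen with earlier results of these data known. Named transcripts are the 4, the 2 most like each (log2 CPM, prior count of 2) on each measure, and the one just outside the choice. Those ranked 6 and 7 were named after their values were seen.

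In granulosa cells, libraries of the same number deviated together from their group means, with r of 0.163 to 0.381 for medium and small follicles and 0.153 to 0.320 for large and small follicles, over 4 pairs each, so the numbers pair these libraries by a hint from the data. The other comparisons had at least 1 pair at or under 0.1.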

Additional observations from a re-analysis of the deposited data

Results flagged for a closer look

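In 48 sets of 4 libraries (8 groups of 4 and 6 measures: the 4 shares, the summed share and the total), 7 held a library whose gap to the nearest of the others exceeded the critical value of Dixon's test. Chance flags about 1 in 20 of independent sets, but these sets are not independent. The summed share and the total contain the counts of the 4 transcripts, so 1 library can be flagged several times. The 7 flags therefore cannot be set against that rate. Oocyte medium 2 gave 5 of the 7. Its share of the second transcript was 44.8%, against 6.45% to 8.61% in the other 3 libraries of its group. Its share of the third transcript was 1.75%, against 9.08% to 10.04%. Its share of the fourth transcript was 7.39%, against 4.97% to 5.13%. Its summed share of the 4 transcripts was 64.0%, against 29.1% to 30.6%, and its total was 52350387 counts, against 24639485 to 26405465. In oocyte small 2 the share of the fourth transcript was 6.86%, against 4.70% to 4.90%. In granulosa small 3 the summed share was 49.1%, against 35.3% to 36.5%.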

How the results depend on the processing

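No called result changed direction. The first transcript in all 3 comparisons of cell types, and the third in both against granulosa cells, passed under every alternative run, DESeq2 included, and so did the fourth in oocytes against granulosa cells. Over the alternatives the fourth in oocytes against cumulus cells was lost with total-count scaling (log2 difference 0.29), totals without the 4 transcripts (0.28), no filter (0.33) and the replicate block with size (0.47). The second in oocytes against granulosa cells was lost with the replicate block with size (1.29), as was the fourth in cumulus against granulosa cells (0.94). The second in cumulus against granulosa cells passed with total-count scaling (1.64), totals without the 4 (1.62), DESeq2 (1.15) and the replicate block (1.73). With each library left out in turn these 4 differences ran from 0.30 to 0.58, 1.02 to 1.82, 0.67 to 0.92 and 1.06 to 1.40. The cause of these changes was not tested. Of 636 values of the 36 size results under alternatives, 0 passed, with a lowest adjusted p of 0.539 (DESeq2), and the replicate block changed no size call of the 4 transcripts.

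Counts of called transcripts moved more. Cumulus against granulosa cells gave 6584 calls, 6633 with the replicate block and 1064 with the replicate block with size. With 1 library left out they gave 4259 (without cumulus small 2) to 8305. DESeq2 called 205, 109 and 190 transcripts in cumulus cells (medium against small, large against medium, large against small), 27, 37 and 41 in granulosa cells and 37, 40 and 44 in oocytes, where edgeR called 0 or 1. At an unadjusted p under 0.05 edgeR had from 314 (of 28721 tested) to 1187 (of 31869 tested). In every size comparison that was less than the fraction of 0.05 that chance alone would give. The 1 call in granulosa cells medium against small and large against small was 0 with total-count scaling, with totals without the 4 and with the replicate block, and 0 without the filter for large against small. With 1 library left out, the counts were 0 to 0 for granulosa medium against small, 0 to 1 for large against small (1 only without granulosa large 1), 0 to 1 for large against medium (1 without granulosa large 1), and 0 to 1 for cumulus large against medium and large against small (1 without cumulus medium 4).

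On the log2 ratio to the counts of other transcripts, Pearson r passed for the second and the fourth in cumulus cells (r = 0.80, permutation test, adjusted p = 0.0062), the first and the second in oocytes (0.80, 0.0122) and the first and the fourth in oocytes (0.88, 0.0022). Spearman rho did not pass for these (0.65, 0.53 and 0.67, permutation test, adjusted p = 0.0929, 0.143 and 0.0585), and without oocyte large 2 and oocyte medium 2 the oocyte values of r were 0.34 and 0.61. For the first in granulosa cells r did not pass with the third (-0.60) or the fourth (-0.32), but rho with the third did (-0.76, permutation test, adjusted p = 0.0251). With library number means taken off, the first with the third (-0.67) and the fourth (-0.64), the second with the third (0.73) and the third with the fourth (0.93) in granulosa cells and the second with the fourth in oocytes (0.78) did not pass. As a percent of the counts outside the 4 transcripts, the first stood at 27.7, 51.2 and 13.3 in cumulus cells, granulosa cells and oocytes, the fourth at 7.12, 3.06 and 8.70, the second at 18.02 in cumulus cells and 24.8 in oocytes (15.7 without oocyte medium 2, below cumulus cells), and the third at 9.48 and 10.7. The library of larger follicles correlated best with its own number in the smaller-follicle group in 4 of 4 pairs each of granulosa and oocyte medium against small and large against small. Between cell types the first-named library did so in 3 of 11 pairs of cumulus and granulosa libraries. It did so in 7 of 11 of oocyte and cumulus libraries and 6 of 12 of oocyte and granulosa libraries. With 3 or 4 candidates for each library, part of such matches arises by chance. The highest r of these pairs was 0.120, 0.046 and 0.060 in that order.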

Other observations

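The transcripts ranked just below the 4 were chosen for these values after they were seen, and no test was made. The transcript ranked 5, ENSMMUT00000110398.1, is 1569 bases long, 1 base more than the second transcript. It was highest in granulosa cells, where the second was lowest: its share was 3.52% ± 1.24 in granulosa cells (SD, n = 12), 2.16% ± 0.804 in cumulus cells (SD, n = 11) and 0.739% ± 0.266 in oocytes (SD, n = 12). The transcript ranked 6, ENSMMUT00000110392.1 of 1378 bases, was low in every library numbered 4. It held 0.213% to 0.268% in the 2 cumulus libraries of that number, 0.492% to 0.767% in the 3 granulosa libraries and 0.121% to 0.134% in the 3 oocyte libraries. In libraries of other numbers it held 2.64% to 7.17% in granulosa cells and 0.569% to 2.46% in oocytes. In cumulus cells it held 2.01% to 2.55% there, except for cumulus small 3 at 0.249%.

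In granulosa medium 2, where the second transcript stood at 0.122%, the third at 0.186% and the fourth at 0.358%, the transcripts ranked 5, 6 and 7 stood at 4.93%, 7.17% and 0.126%. The first 2 of these were the highest values of the 35 libraries for their transcripts, and the last was the lowest.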
